A study of Mus musculus with 10 samples.

Results

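The mitochondrial ribosomal proteins are the nuclear-encoded proteins of the ribosome inside mitochondria. They were taken from the deposited count table by symbol, as every row named Mrpl (large subunit) or Mrps (small subunit) followed by a number, without pseudogene rows. This gave 76 genes of the 24640 in the table, 47 Mrpl and 29 Mrps, and all 76 passed the filter on low counts that left 15212 genes to test.

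RNA sequencing was done on 10 libraries of brown adipocytes of the mouse strain C57BL/6, in 5 groups of 2. Cells received the solvent DMSO for 1 day, BML-260 for 1 day, ISO, DMSO for 3 days or BML-260 for 3 days. BML-260 is known as an inhibitor of the dual-specificity phosphatase Dusp22, and the abbreviation ISO is not spelled out in the labels, which list it at 1 day. A list the authors deposited holds ISO beside the 3-day groups alone, per the file headers, while others, among them the count table, hold it beside groups of both times. It is therefore unclear which DMSO group shares the culture time of ISO, and results with ISO are given against DMSO at 1 day unless DMSO at 3 days is named. No genotype, transgene or other agent is listed for any group, and the labels state no dose, no age of the mice and not whether the cells were primary or a line.

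Mitochondrial ribosomes translate the few proteins that mitochondrial DNA encodes, which are core subunits of the respiratory chain and of the ATP synthase. Their ribosomal RNAs come from mitochondrial DNA, whereas their proteins are encoded in the nucleus, made in the cytosol and imported. Brown adipocytes are rich in mitochondria and burn fat to make heat through the uncoupling protein Ucp1.

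Libraries held 16955918 to 21185675 counts assigned to genes, and the 76 genes together took 0.419% to 0.552% of them. Single counts ran from 57, for Mrpl23, to 3482, for Mrpl13, and after Mrpl23 the lowest minimum was 136, for Mrps34. Levels are given as CPM, counts scaled to library size. Log2 CPM of both libraries of each group had r of at least 0.994 over genes. Nothing in the labels says that libraries of 1 group are separate cultures, so p-values measure only the spread between libraries, which may be technical. The adipocyte markers Adipoq and Fabp4 were abundant in all groups (group means of 448 to 1390 and of 4339 to 10437 CPM), and the 6 brown adipocyte markers summed to 214 to 343 CPM. Of these Cidea was at group means of 129 to 237 CPM, Ppargc1a at 35.6 to 50.8, Elovl3 at 9.44 to 30.6, Prdm16 at 9.47 to 19.1 and Ucp1 at 5.58 to 31.8, and Dio2, a brown fat deiodinase, had at most 2 counts in any library. Endothelial markers summed to at most 1.42 CPM and the 4 macrophage markers, of which Adgre1 and Ptprc are not listed in the table, to at most 7.18 CPM, and of the 4 skeletal muscle markers the table lists 1, Ckm, with at most 1 count.

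Levels were compared between genes per length, as CPM per kilobase (kb) of the principal transcript, averaged over the 10 libraries. Mrpl42, a protein found only in mitochondrial ribosomes, was the most abundant large subunit message at 177 CPM per kb, with a range over libraries of 143 to 226. Mrpl33 at 158 and Mrpl30 at 126 CPM per kb, both with bacterial counterparts, came next in this mean over groups. By group means Mrpl13 lay above Mrpl30 with ISO (110 and 107 CPM per kb), DMSO at 3 days and BML-260 at 3 days, and Mrpl54 did so with ISO and BML-260 at 3 days. Mrpl33 lay above Mrpl42 with ISO (149 and 147 CPM per kb) and below it in the other groups. The ranges of Mrpl42 (143 to 226 CPM per kb) and Mrpl33 (144 to 170) overlapped over the libraries of all groups, so their order does not exceed that spread.

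At the lower end of the large subunit, Mrpl48 was at 4.09, Mrpl23 at 5.46 and Mrpl19 at 8.49 CPM per kb. Among small subunit symbols Mrps21 at 121, Mrps18c at 99.9 and Mrps6 at 92.2 CPM per kb were highest, all proteins with bacterial counterparts, although by group means Mrps6 lay above Mrps18c with ISO (91.3 and 88.1 CPM per kb) and DMSO at 3 days (99.2 and 85.7). Mrps25 at 6.14, Mrps34 at 10.7 and Mrps26 at 10.9 CPM per kb were lowest, and these 3 belong to the proteins that only mitochondrial ribosomes have. The messages spanned 4.09 to 177 CPM per kb in the large and 6.14 to 121 in the small subunit, with medians of 45.8 and 35.4. These values depend on which transcript sets the length: the model used for Mrps25 is 6073 bases long and that for Mrpl48 4285, against a median of 1302 over the 76 genes.

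**Figure D1:**
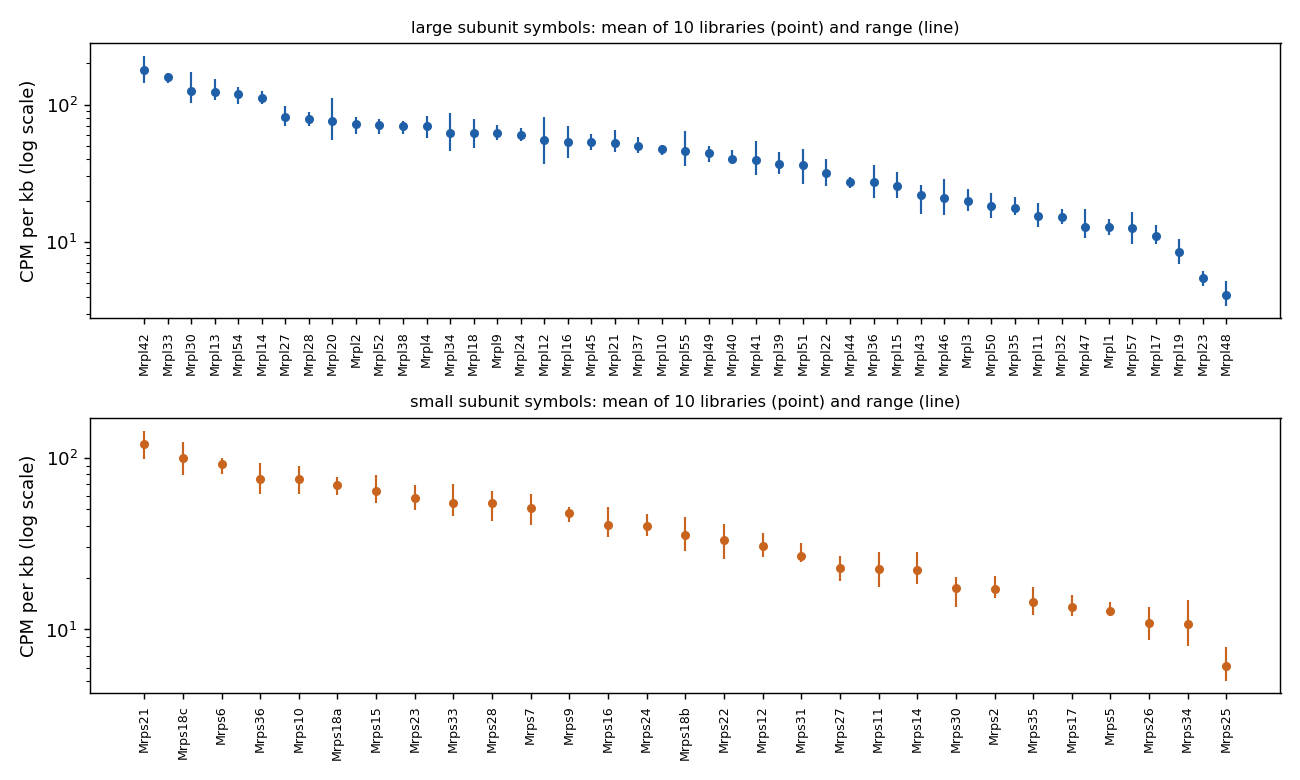
Level of each gene in CPM per kb of its principal transcript on a log axis, large subunit symbols above and small subunit symbols below, ordered by level. Points are means of 10 libraries and lines run from the lowest to the highest library; the range over libraries is narrow beside the spread between genes, which reaches from 4.09 to 177 CPM per kb.

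Summed over the genes, both subunits were highest with BML-260 at 1 day and lowest with DMSO at 3 days. Mrpl symbols summed to 3345 and 3277 CPM with DMSO at 1 day and to 3627 and 3728 CPM with BML-260 at 1 day. They summed to 2848 and 2767 CPM with ISO, to 2737 and 2729 CPM with DMSO at 3 days, and to 2914 and 2910 CPM with BML-260 at 3 days. Libraries of different groups did not overlap in these sums, and the BML-260 libraries lay above those of DMSO at both times.

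Mrps symbols summed to 1724 and 1661 CPM with DMSO at 1 day and to 1823 and 1874 CPM with BML-260 at 1 day. The sums were 1492 and 1472 CPM with ISO, 1441 and 1430 CPM with DMSO at 3 days, and 1500 and 1518 CPM with BML-260 at 3 days. The order of the groups was that of the large subunit, again with no overlap, although ISO and BML-260 at 3 days (group means 1482 ± 14.3 and 1509 ± 13.2 CPM, SD, n = 2) lay close together. The ratio of the Mrpl to the Mrps sum stayed within 1.88 to 1.99 in all libraries. Group means were 1.96 ± 0.0226 with DMSO at 1 day, 1.99 with BML-260 at 1 day, 1.89 ± 0.0208 with ISO, 1.90 ± 0.00631 with DMSO at 3 days and 1.93 ± 0.0186 with BML-260 at 3 days (SD, n = 2).

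Both libraries of ISO and of DMSO at 3 days had a lower ratio than either library of DMSO at 1 day, with differences in the log2 ratio of -0.0468 and -0.0396. Symbols and structures differ for 3 genes: Mrps18a and Mrps30 sit in the large subunit in structures of the mammalian ribosome, and Mrps36 is not a ribosome part but a subunit of the 2-oxoglutarate dehydrogenase complex. With these 3 placed by structure the differences in log2 ratio from DMSO at 1 day shrank to -0.0118 with ISO and -0.0155 with DMSO at 3 days. The value of BML-260 at 3 days then turned from -0.0203 to 0.00924, and that of BML-260 at 1 day was 0.0371 in place of 0.0243.

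Summed levels of cell type markers also differed between groups. The summed level of the 6 of 6 preadipocyte and fibroblast markers listed in the table, largely the collagen gene Col1a1, was 1725 to 1891 CPM with DMSO at 1 day, 1200 to 1318 with BML-260 at 1 day, 3992 to 4565 with ISO, 3554 to 3836 with DMSO at 3 days and 2988 to 3044 with BML-260 at 3 days. It was thus low where ribosomal protein messages were high, at 1 day with DMSO or BML-260. The 6 of 6 adipocyte markers, largely Fabp4, summed to 12166 to 12603, 15815 to 16352, 9587 to 10085, 10089 to 10367 and 10044 to 10167 CPM in the same order of groups, and the 4 of 4 smooth muscle markers to 85.7 to 86.5, 47.6 to 54.5, 106 to 117, 138 to 147 and 61.9 to 66.4 CPM. Adipocyte markers did not move together: with BML-260 at 1 day Fabp4 had a group mean of 10437 CPM against 6393 with DMSO, while Adipoq was at 1089 against 1390, Plin1 at 779 against 862 and Pparg at 373 against 413. Without Fabp4 the means of that list summed to 5992 CPM with DMSO at 1 day, 5647 with BML-260 at 1 day, 5497 with ISO, 5629 with DMSO at 3 days and 4417 with BML-260 at 3 days. No marker of these 3 lists was at 0. In bulk libraries fewer cells of a type and less RNA per cell cannot be told apart, and the part of these markers in the results was not tested.

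**Figure D2:**
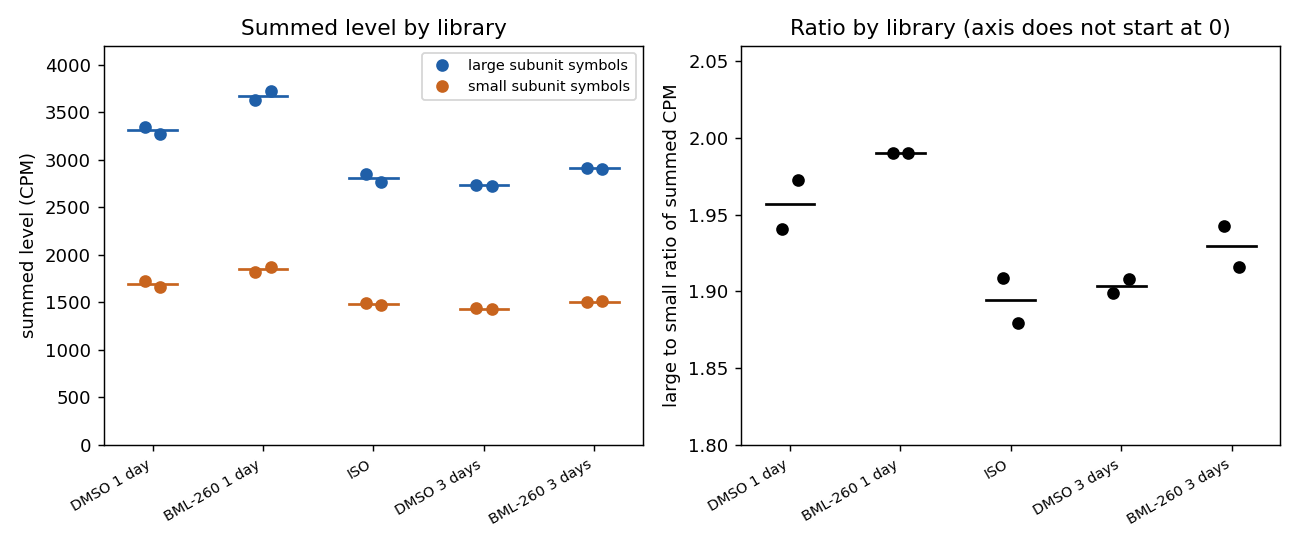
Left, summed CPM of the 47 Mrpl and the 29 Mrps genes in each library, with the group mean as a line; both sums are highest with BML-260 at 1 day. Right, the ratio of the sums in each library on an axis that does not start at 0; all 10 libraries lie between 1.88 and 1.99.

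Over all 5 groups, 73 of the 76 genes differed (edgeR's quasi-likelihood test, Benjamini-Hochberg adjusted p under 0.05 over all genes tested), against 66.4% of all genes tested. Those not called were Mrpl23, the least abundant in counts, Mrpl44, an RNase III-like protein, and Mrps9. BML-260 at 1 day was the group of highest mean in 64 genes, DMSO at 1 day in 8, BML-260 at 3 days in 3 and DMSO at 3 days in 1. The lowest mean was found with DMSO at 3 days in 39 genes, with BML-260 at 3 days in 16, with ISO in 15 and with DMSO at 1 day in 6. How often each group is highest or lowest over all genes tested was not counted, so these numbers have no background beside them. Differences were small: the highest group mean exceeded the lowest by 1.13-fold to 2.02-fold, with a median of 1.40-fold.

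After 1 day of BML-260, 32 of the 76 genes were higher than with DMSO and 0 were lower, 21 of 47 Mrpl and 11 of 29 Mrps (42.1% of members, against 9.32% of all genes tested called higher, 8.62% called lower and 17.9% in either direction). The median log2 fold change was 0.16 for Mrpl and 0.14 for Mrps, against -0.00 for all genes tested, and no called gene reached 0.5. Mrps30, which despite its name is a large subunit protein, was at 51.2 and 45.0 CPM with DMSO and 67.0 and 62.6 CPM with BML-260. Both treated libraries lay above both controls, a change of 0.43 ± 0.07 (SE on the log2 scale, edgeR adjusted p = 7.7e-05).

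Mrpl15, a core protein with a bacterial counterpart, was at 112 and 101 CPM with DMSO and 137 and 135 CPM with BML-260, a change of 0.36 ± 0.05 (SE on the log2 scale, edgeR adjusted p = 2e-05). Mrpl47 was at 46.2 and 43.7 and 58.2 and 56.0 CPM, a change of 0.35 ± 0.06 (SE on the log2 scale, edgeR adjusted p = 0.00026). Mrpl21 was at 59.8 and 57.0 and 70.5 and 74.3 CPM, a change of 0.31 ± 0.06 (SE on the log2 scale, edgeR adjusted p = 0.00031). In each of these genes the lower treated library stood well above the higher control.

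Mrpl19 was at 44.1 and 40.6 CPM with DMSO and 50.7 and 52.8 CPM with BML-260, a change of 0.29 ± 0.06 (SE on the log2 scale, edgeR adjusted p = 0.0018). This call was lost without replicate 2 of DMSO at 1 day (0.23, edgeR adjusted p = 0.063). Of the 44 genes not called the lowest was Mrps12, a protein of the decoding centre, at 31.5 and 32.1 CPM with DMSO and 26.0 and 29.0 CPM with BML-260 (-0.21, edgeR adjusted p = 0.069). The number of calls depended on the tool and on single libraries. DESeq2 called 20 members, all higher, and 1838 genes over the whole table, where edgeR called 2728. Without any 1 library of the 2 groups compared, edgeR called fewer members and fewer genes over the whole table, and all members called were higher.

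After 3 days of BML-260, 31 genes differed from DMSO at 3 days, 25 higher and 6 lower (40.8% of members, against 35.5% of all genes tested, 17.3% called higher and 18.3% called lower). Of the Mrpl genes 16 rose and 3 fell, of the Mrps genes 9 rose and 3 fell, with median log2 fold changes of 0.11 and 0.07 against -0.02 for all genes tested. The split of calls depended on the scaling within edgeR, with 19 higher and 9 lower under upper-quartile scaling and 29 higher and 4 lower under size factors of DESeq2. The test of DESeq2 itself called 24 higher and 2 lower, and 3903 genes over the whole table, where edgeR called 5407. The number called in either direction was near the background, whereas 32.9% of members were higher against 17.3% of all genes.

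Mrps18b, 1 of the 3 mammalian proteins related to a single bacterial one, was at 35.7 and 33.7 CPM with DMSO and 45.3 and 48.7 CPM with BML-260, a change of 0.44 ± 0.07 (SE on the log2 scale, edgeR adjusted p = 1.6e-05). Mrps22, a protein specific to mitochondrial ribosomes, was at 30.8 and 33.8 and 43.3 and 41.9 CPM, a change of 0.40 ± 0.07 (SE on the log2 scale, edgeR adjusted p = 6.2e-05). Mrpl19 was at 34.8 and 34.7 and 46.4 and 42.6 CPM, a change of 0.36 ± 0.07 (SE on the log2 scale, edgeR adjusted p = 0.00012). In all 3 genes the libraries of the groups were far apart.

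Mrpl4 was at 74.1 and 73.8 and 95.1 and 91.1 CPM, a change of 0.33 ± 0.05 (SE on the log2 scale, edgeR adjusted p = 1.3e-05), and Mrps28 was at 34.9 and 33.6 and 45.1 and 41.1 CPM, a change of 0.33 ± 0.07 (SE on the log2 scale, edgeR adjusted p = 0.00037). Mrpl51, found only in mitochondrial ribosomes, was lower, at 115 and 114 CPM with DMSO and 96.7 and 90.8 CPM with BML-260, a change of -0.29 ± 0.05 (SE on the log2 scale, edgeR adjusted p = 0.00013). Mrps6, which has a bacterial counterpart, was at 84.6 and 83.3 and 68.1 and 72.4 CPM, a change of -0.26 ± 0.05 (SE on the log2 scale, edgeR adjusted p = 0.00037). Their treated libraries were all below their controls.

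Mrpl49 (80.5 and 77.3 against 67.5 and 71.8 CPM, log2 fold change -0.18), Mrps7 (91.4 and 91.4 against 84.0 and 79.6 CPM, -0.16) and Mrps35 (59.1 and 60.6 against 52.3 and 55.5 CPM, -0.15) fell by edgeR but not by DESeq2, with DESeq2 adjusted p of 0.06, 0.1 and 0.2. Each lost its call without 1 or more single libraries of the 3-day groups. Mrps35 also lost it under size factors of DESeq2 within edgeR (-0.13, adjusted p = 0.077).

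Rises at both times were found in 15 genes, 10 Mrpl and 5 Mrps, which are 46.9% of those higher at 1 day and 60.0% of those higher at 3 days; over all genes tested the shares were 63.3% and 34.2%. They are Mrpl13, Mrpl15, Mrpl16, Mrpl19, Mrpl21, Mrpl24, Mrpl30, Mrpl32, Mrpl38, Mrpl46, Mrps10, Mrps14, Mrps16, Mrps18b and Mrps28. The difference between the effects at 3 days and at 1 day was called in 6 genes, 5 with a lower and 1 with a higher effect at 3 days (7.89% of members, against 8.44% of all genes tested, 3.93% higher and 4.51% lower). That share is near the background, so the members as a group did not stand apart in this comparison.

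Mrpl51 carried the largest such difference. It was at 148 and 148 CPM with DMSO and 150.4 and 162 CPM with BML-260 at 1 day, where treated libraries lay a little above the controls, in contrast to the fall at 3 days given above. The difference in log2 effect was -0.37 ± 0.07 (SE, edgeR adjusted p = 0.0024). Mrps6 was at 77.2 and 76.1 and 84.4 and 79.2 CPM at 1 day, and its difference was -0.35 ± 0.07 (SE, edgeR adjusted p = 0.0038). Both calls held under all alternatives run.

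Mrps35 rose at 1 day, from 66.0 and 62.0 to 71.6 and 73.2 CPM (log2 fold change 0.18, edgeR adjusted p = 0.027), and its effects differed by -0.33 ± 0.08 (SE, edgeR adjusted p = 0.011). Mrpl18, which in human cells has been tied to import of the cytosolic 5S ribosomal RNA, differed by -0.24 ± 0.07 (SE, edgeR adjusted p = 0.042), Mrps26 by 0.29 ± 0.09 (SE, edgeR adjusted p = 0.048) and Mrpl11, a protein of the factor-binding region, by -0.26 ± 0.08 (SE, edgeR adjusted p = 0.049). These 4 calls were lost under DESeq2 (adjusted p of 0.05, 0.16, 0.11 and 0.19 in that order, the first just above the threshold) and without several single libraries. The number of differences called fell to 3 with no filter on low counts, to 2 with DESeq2 and to 2 to 5 when 1 library was left out.

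**Figure D3:**
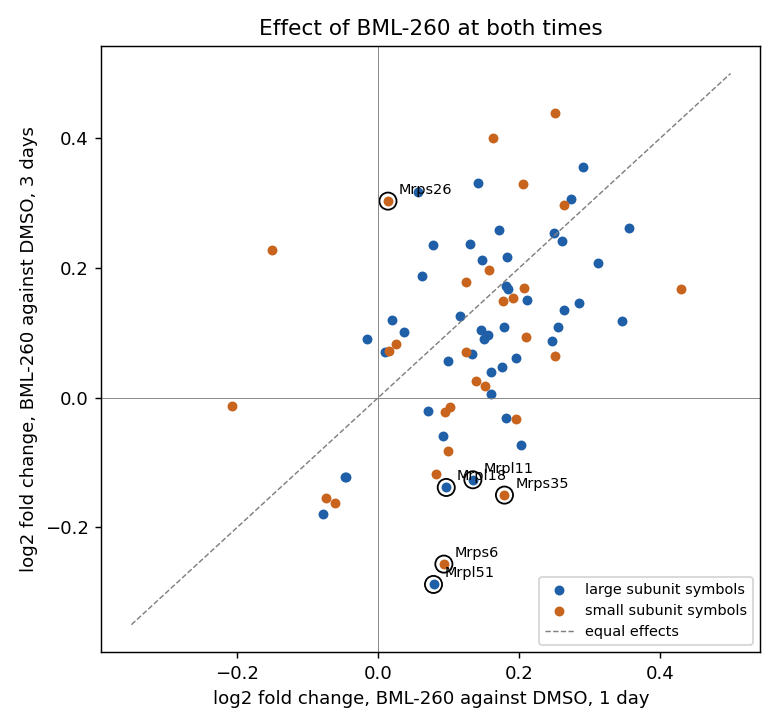
Log2 fold change of BML-260 against DMSO at 1 day (x axis) and at 3 days (y axis) for each of the 76 genes, with equal effects as a dashed line. Circles mark the 6 genes whose effects differ by edgeR; 5 lie below the line, Mrpl51 and Mrps6 farthest, and Mrps26 lies above it.

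Reads of a gene and of a gene that overlaps it cannot be told apart where strand was not recorded, and the sources used here do not state strandedness. In the gene models 26 of the 76 genes share exon bases with another counted gene. Mrps6 overlaps Slc5a3, a myo-inositol transporter gene on the same strand, which moved the opposite way in the difference between times (0.31, edgeR adjusted p = 0.0038) and was not called with BML-260 at 3 days (0.04, edgeR adjusted p = 0.53). Mrpl51 overlaps the microRNA gene Mir3098, which had 6 to 14 counts. Mrps30 overlaps the RNA gene B430218F22Rik, which had 4 to 11, and Mrpl12 overlaps Gm16755, which had 34 to 90. Mrpl47 overlaps the complex I gene Ndufb5, which rose with BML-260 at 1 day as well (0.25, edgeR adjusted p = 0.00063), and the other partner of Mrpl47, Actl6a, was not called there. Of the partners of Mrps7, Mif4gd fell with BML-260 at 3 days as Mrps7 did (-0.47, edgeR adjusted p = 2.7e-07) and Gga3 rose (0.18, adjusted p = 0.037). Syvn1, the partner of Mrpl49, rose there (0.42, adjusted p = 2.4e-06).

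The result with ISO depended on which DMSO group it was set against, and against DMSO at 1 day a difference with ISO and the change over time cannot be told apart. With ISO, 57 of the 76 genes differed from DMSO at 1 day, 54 lower and 3 higher (75% of members, against 41.7% of all genes tested, 20.3% called lower and 21.4% called higher). Of the Mrpl genes 35 fell and 1 rose, of the Mrps genes 19 fell and 2 rose, with median log2 fold changes of -0.22 and -0.28 against -0.00 for all genes. The largest falls were all in Mrpl genes. Mrpl20, a core protein with a bacterial counterpart, was at 75.8 and 65.5 CPM with DMSO and 42.0 and 41.9 CPM with ISO, a change of -0.75 ± 0.06 (SE on the log2 scale, edgeR adjusted p = 3.7e-10).

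Mrpl34 was at 46.0 and 51.5 and 30.3 and 29.5 CPM, a change of -0.71 ± 0.09 (SE on the log2 scale, edgeR adjusted p = 4.5e-07). Mrpl12, the stalk protein that recruits translation factors and also binds the mitochondrial RNA polymerase, was at 98.0 and 96.3 and 59.9 and 61.8 CPM, a change of -0.67 ± 0.06 (SE on the log2 scale, edgeR adjusted p = 1.5e-09). Mrpl55 was at 53.0 and 50.5 and 33.4 and 34.4 CPM, a change of -0.61 ± 0.07 (SE on the log2 scale, edgeR adjusted p = 4e-08). ISO libraries of these genes were all far below the controls.

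Mrpl36 was at 31.1 and 31.8 and 21.2 and 20.3 CPM, a change of -0.60 ± 0.08 (SE on the log2 scale, edgeR adjusted p = 3.9e-07); its exons overlap those of Ndufs6, a complex I subunit gene on the opposite strand that fell as well (-0.46, edgeR adjusted p = 1.8e-08). The 3 genes higher with ISO were Mrpl38, at 85.8 and 91.3 CPM with DMSO and 107 and 103 CPM with ISO (log2 fold change 0.24, edgeR adjusted p = 0.00041), Mrps30, at 51.2 and 45.0 and 62.0 and 56.1 CPM (log2 fold change 0.29, edgeR adjusted p = 0.0016), and Mrps18b, at 34.3 and 30.7 and 36.1 and 39.9 CPM (log2 fold change 0.23, edgeR adjusted p = 0.013). The calls of Mrps30 (0.20, edgeR adjusted p = 0.071) and Mrps18b (0.15, adjusted p = 0.2) were lost without replicate 2 of DMSO at 1 day, and that of Mrps18b also without replicate 2 of ISO (0.15, adjusted p = 0.21), by DESeq2 (0.23, adjusted p = 0.051) and under upper-quartile scaling (0.18, adjusted p = 0.051).

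Against DMSO at 3 days, a comparison added after the data were seen, ISO differed in 11 of the 76 genes, 10 higher and 1 lower (14.5% of members, against 19.9% of all genes tested, 10.6% called higher and 9.24% called lower). The median log2 fold change was 0.03 for Mrpl and 0.05 for Mrps, so the 54 lower calls against DMSO at 1 day have a single lower call as counterpart here. Mrpl43 was the most different (0.38, edgeR adjusted p = 0.001), followed by Mrps28 (0.31, adjusted p = 0.0019). Mrpl12, lower with ISO than with DMSO at 1 day, was higher than with DMSO at 3 days (0.28, adjusted p = 0.0028), and the lower gene was Mrps35 (-0.19, adjusted p = 0.018). DESeq2 called 7, all higher, upper-quartile scaling gave 6 higher and 2 lower, and edgeR called 7 without replicate 1 or replicate 2 of ISO, 5 without replicate 1 and 6 without replicate 2 of DMSO at 3 days.

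BML-260 at 1 day was set against ISO directly, both being listed at 1 day in the labels. This result too depended on the times: BML-260 at 3 days differed from ISO in 12 genes, 10 higher and 2 lower (15.8% of members, against 16.4% of all genes tested, 7.3% called higher and 9.13% called lower; added after the data were seen). That count was 7 by DESeq2, 7 and 5 without replicate 1 and 2 of ISO, and 7 and 4 without replicate 1 and 2 of BML-260 at 3 days. At 1 day 65 of the 76 genes were higher with BML-260 and 0 lower, 43 of 47 Mrpl and 22 of 29 Mrps (85.5% of members, against 44.4% of all genes tested, 21.6% called higher and 22.8% called lower). Median log2 fold changes were 0.41 and 0.31, against 0.00 for all genes, and 17 called genes reached 0.5. Mrpl20, at 84.9 and 83.6 CPM with BML-260 and 42.0 and 41.9 CPM with ISO, differed by 1.01 ± 0.06 (SE, edgeR adjusted p = 6.5e-13), or 2.01-fold.

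Mrpl55 (54.2 and 60.1 CPM with BML-260 and 33.4 and 34.4 with ISO) differed by 0.75 ± 0.07 (SE, edgeR adjusted p = 5.2e-10), and Mrpl41, a protein found only in mitochondrial ribosomes (40.7 and 42.2 and 24.8 and 24.7 CPM), by 0.75 ± 0.07 (SE, edgeR adjusted p = 2.2e-09). Mrpl12 (95.7 and 107 and 59.9 and 61.8 CPM) differed by 0.74 ± 0.06 (SE, edgeR adjusted p = 1.9e-10). Mrpl46 (31.6 and 32.4 and 21.2 and 19.0 CPM) differed by 0.68 ± 0.08 (SE, edgeR adjusted p = 1.6e-07), and it shares exon bases with Mrps11 on the opposite strand, another of the 76 genes. The libraries of the 2 agents did not overlap in any of these 5 genes.

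With solvent alone, 62 of the 76 genes differed between 3 days and 1 day of DMSO, 61 lower and 1 higher at 3 days (81.6% of members, against 34.9% of all genes tested, 16.8% called lower and 18.1% called higher). Of the Mrpl genes 39 fell and 0 rose, of the Mrps genes 22 fell and 1 rose, and the medians were -0.28 and -0.33 against 0.01 for all genes. The fall of Mrpl12 was the largest, from 98.0 and 96.3 to 48.7 and 51.5 CPM, a change of -0.96 ± 0.06 (SE on the log2 scale, edgeR adjusted p = 6.5e-12). Both libraries at 3 days lay far below both at 1 day.

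Mrps34, which binds the 12S ribosomal RNA of the small subunit, went from 13.6 and 11.2 to 7.37 and 7.63 CPM, a change of -0.72 ± 0.15 (SE on the log2 scale, edgeR adjusted p = 0.00053). It was the second lowest of the 76 genes in counts, and its 1-day libraries lay far apart. Its exons overlap those of Mapk8ip3 on the opposite strand, which had 3283 to 6076 counts and was higher at 3 days (0.20, edgeR adjusted p = 0.004). Mrpl20 went from 75.8 and 65.5 to 44.2 and 44.9 CPM, a change of -0.66 ± 0.06 (SE on the log2 scale, edgeR adjusted p = 4.5e-09), Mrpl36 from 31.1 and 31.8 to 19.8 and 20.7 CPM, a change of -0.63 ± 0.08 (SE on the log2 scale, edgeR adjusted p = 2.5e-07), and Mrpl34 from 46.0 and 51.5 to 32.1 and 32.9 CPM, a change of -0.59 ± 0.09 (SE on the log2 scale, edgeR adjusted p = 8.5e-06). The comparison shares the DMSO libraries at 1 day with those of ISO and of BML-260 at 1 day, so the 3 are not independent.

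Mrps30 was the gene that rose, from 51.2 and 45.0 to 57.2 and 52.7 CPM, a change of 0.19 ± 0.07 (SE on the log2 scale, edgeR adjusted p = 0.037). This call was lost by DESeq2 (adjusted p = 0.1), under upper-quartile scaling (adjusted p = 0.064), and without replicate 2 of DMSO at 1 day (0.10, adjusted p = 0.42) or replicate 1 of DMSO at 3 days (0.12, adjusted p = 0.35). The 14 genes not called included Mrps6, Mrpl38, Mrps18b and Mrpl32.

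**Figure D4:**
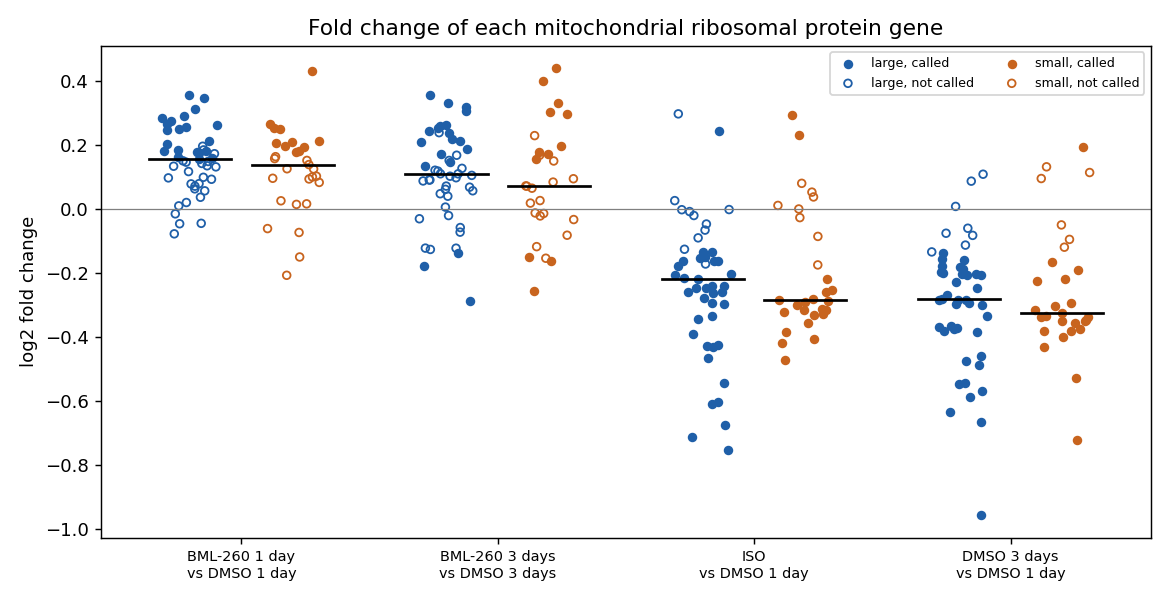
Log2 fold change of each gene in 4 comparisons, Mrpl in blue and Mrps in orange, with filled points for genes called by edgeR, open points for the others and the median as a black line. Medians lie above 0 for BML-260 at both times and below 0 for ISO and for DMSO over time; 3 of these comparisons share the DMSO libraries at 1 day.

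Promoters of 5 genes are shown because they carry the extremes: Mrpl12, Mrpl20 and Mrpl34, which fell most with ISO or over time, and Mrps30 and Mrps18b, which moved otherwise. Sequences are the 250 bases before the gene start in RefSeq on GRCm38.p6, read 5′ to 3′ along the gene, and capitals mark matches to the motifs of NRF1, ETS factors, YY1 and the E-box, searched on both strands.
Mrpl12 (chr11:120484387-120484636, + strand): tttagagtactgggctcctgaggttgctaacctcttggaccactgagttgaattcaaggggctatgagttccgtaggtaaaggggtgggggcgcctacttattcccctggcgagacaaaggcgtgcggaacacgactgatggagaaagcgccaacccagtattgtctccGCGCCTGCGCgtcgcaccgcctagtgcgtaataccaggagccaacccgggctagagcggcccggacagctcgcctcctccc
Mrpl20 (chr4:155802628-155802877, + strand): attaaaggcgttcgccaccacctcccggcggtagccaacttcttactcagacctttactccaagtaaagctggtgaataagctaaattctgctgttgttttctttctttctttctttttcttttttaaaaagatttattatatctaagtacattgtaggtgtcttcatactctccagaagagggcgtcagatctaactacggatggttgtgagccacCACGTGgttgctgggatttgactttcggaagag
Mrpl34 (chr8:71464676-71464925, + strand): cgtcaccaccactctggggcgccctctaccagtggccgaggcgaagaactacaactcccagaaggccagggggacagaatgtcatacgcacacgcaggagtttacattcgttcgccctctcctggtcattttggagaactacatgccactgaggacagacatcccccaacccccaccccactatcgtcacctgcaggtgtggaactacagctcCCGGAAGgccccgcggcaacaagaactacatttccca
Mrps18b (chr17:35916441-35916690, - strand): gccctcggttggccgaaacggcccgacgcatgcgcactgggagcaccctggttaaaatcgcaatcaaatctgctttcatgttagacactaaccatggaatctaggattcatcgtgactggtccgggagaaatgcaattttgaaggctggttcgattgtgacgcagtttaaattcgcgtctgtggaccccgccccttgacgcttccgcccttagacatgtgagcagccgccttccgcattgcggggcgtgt
Mrps30 (chr13:118387253-118387502, - strand): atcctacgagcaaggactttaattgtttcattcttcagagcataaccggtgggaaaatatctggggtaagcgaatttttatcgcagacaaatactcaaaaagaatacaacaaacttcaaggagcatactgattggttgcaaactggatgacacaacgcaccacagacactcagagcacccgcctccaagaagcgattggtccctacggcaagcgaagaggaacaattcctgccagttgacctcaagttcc

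NRF1, a nuclear factor known for binding promoters of genes with mitochondrial products, has a motif of GCGC, any 2 bases and GCGC again, found once before Mrpl12 at position -81. Mrpl20 has the E-box CACGTG, the core bound by Myc and the clock factors, at -33, and Mrpl34 has CCGGAAG, bound by ETS factors such as Gabpa, at -37. The windows of Mrps30 and Mrps18b shown hold none of the motifs in capitals; with the 50 bases after the start included, Mrps18b has CCGGAAG at 43. A match is a description of the letters and not a binding site.

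RefSeq promoters of 300 bases (250 before to 50 after the start) were matched by symbol for 67 of the 76 genes and not for Mrpl4, Mrpl13, Mrpl15, Mrpl19, Mrpl38, Mrpl54, Mrps28, Mrps34 and Mrps35. CCGGAAG was found in 24 of the 67 (35.8%), against 19.7% of the 9896 tested genes and 9.93% of all 27025 genes with a promoter in that table. The NRF1 motif was found in 14 (20.9%, against 1480 of the 9896 and 1891 of the 27025), the YY1 motif AAGATGGCG in 8 (11.9%, against 3.47% and 1.64%) and CACGTG in 5 (7.46%, against 11.7% and 8.09%). The letters TGACGTCA (bound by Creb) were found in 2 (2.99%, against 3.59% and 2.03%), CCAAT in 26 (38.8%, against 43.0% and 41.1%), and TNAAGGTCA (bound by the receptors of the ERR family) in 0, against 0.889% and 1.43%. No 2 matches to different motifs shared bases in these promoters.

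Members were also split by motif. With ISO the median log2 fold change was -0.27 in the 24 genes with CCGGAAG and -0.25 in the 43 without, and -0.22 in the 14 with the NRF1 motif and -0.26 in the 53 without. For DMSO over time the medians were -0.34 and -0.23 for CCGGAAG and -0.24 and -0.30 for the NRF1 motif. Called lower there were 23 of 24 genes with CCGGAAG and 31 of 43 without, and 10 of 14 with the NRF1 motif and 44 of 53 without. All 8 with the YY1 motif and all 5 with CACGTG were lower too, against 46 of 59 and 49 of 62 without. Over all genes tested 16.8% were called lower. With BML-260 at 1 day the medians were 0.14 and 0.15 for CCGGAAG and 0.10 and 0.15 for the NRF1 motif. These medians and counts are descriptions, with no test.

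Members that departed from the shared order differed in which groups were high. Mrps30 was lowest with DMSO at 1 day and stood at 58.2 and 65.1 CPM with BML-260 at 3 days, above every DMSO library. Mrps18b was highest with BML-260 at 3 days, as given above, while its relatives differed: Mrps18c fell with ISO, at 70.0 and 68.1 CPM with DMSO and 58.4 and 54.1 with ISO (log2 fold change -0.30, edgeR adjusted p = 0.00031), and Mrps18a, a large subunit protein in structures, was at 60.5 and 61.0 and 66.4 and 58.7 CPM (log2 fold change 0.04, edgeR adjusted p = 0.65). The groups overlapped for Mrps18a and not for Mrps18c.

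Mrpl32, which is matured by the inner membrane m-AAA protease, rose with BML-260 at both times, from 43.9 and 43.1 to 52.5 and 51.7 CPM at 1 day (log2 fold change 0.26, edgeR adjusted p = 0.0033) and from 40.4 and 43.0 to 50.5 and 48.2 CPM at 3 days (log2 fold change 0.24, edgeR adjusted p = 0.0028). It overlapped between ISO and DMSO, at 44.6 and 42.0 CPM with ISO (log2 fold change -0.01, edgeR adjusted p = 0.93). Mrpl45, at the exit of the tunnel and facing the inner membrane, was at 134 and 127 CPM with DMSO, 145 and 149.6 with BML-260 at 1 day (log2 fold change 0.18, edgeR adjusted p = 0.01) and 132 and 125 with ISO (log2 fold change -0.02, edgeR adjusted p = 0.76). Mrpl44 lay between 35.4 and 42.7 CPM in all 10 libraries, and no comparison called it.

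Mrps36, the 2-oxoglutarate dehydrogenase subunit, fell like most ribosomal members, from 63.1 and 58.5 CPM with DMSO at 1 day to 44.9 and 46.7 with ISO (log2 fold change -0.41, edgeR adjusted p = 6e-06) and 49.5 and 45.5 with DMSO at 3 days (log2 fold change -0.36, edgeR adjusted p = 4.5e-05). Mrpl58, a release factor built into the large subunit, is listed under its older symbol Ict1 and so is no member by the rule. It fell with ISO (-0.53, edgeR adjusted p = 2.2e-06) and over time (-0.50, adjusted p = 6.2e-06) and was not called with BML-260 at 1 or 3 days (0.05 and 0.08).

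**Figure D5:**
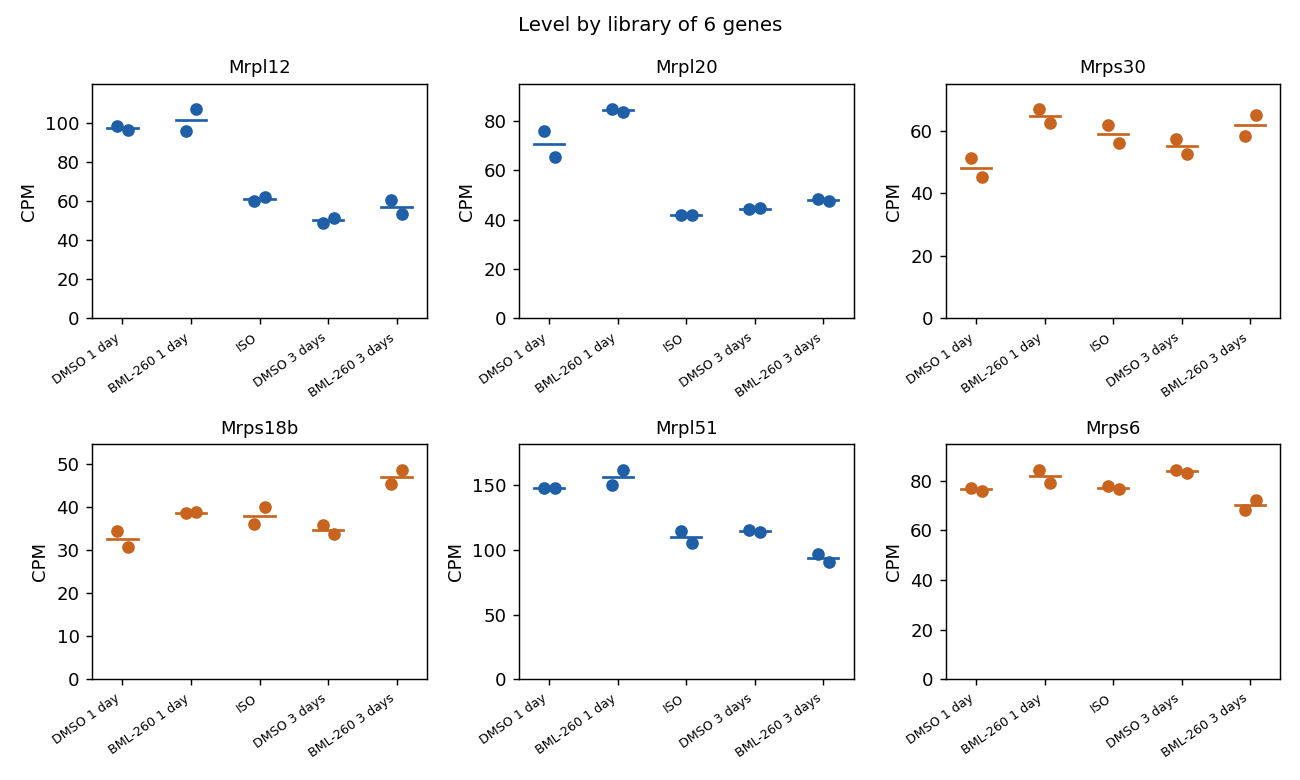
CPM in each library for 6 genes, with the group mean as a line and axes from 0. Mrpl12 and Mrpl20 separate both 1-day groups of DMSO and BML-260 from the rest, Mrps30 is lowest with DMSO at 1 day, Mrps18b is highest with BML-260 at 3 days, and Mrpl51 and Mrps6 are lowest with BML-260 at 3 days.

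Proteins with a bacterial counterpart and proteins that only mitochondrial ribosomes have did not separate by their counts. Of 46 with a counterpart 20 rose with BML-260 at 1 day, 34 fell with ISO and 38 fell over time; of 27 without one, 11, 19 and 21 did so. Medians were 0.14 and 0.16 with BML-260 at 1 day, -0.24 and -0.28 with ISO, and -0.29 and -0.28 over time. The remaining 3 genes are Mrps18a and Mrps18b, which are variants of 1 bacterial protein, and Mrps36.

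Other parts of the mitochondrial translation system were read from lists of partners. Over all genes tested 20.3% were called lower and 21.4% higher with ISO, 16.8% and 18.1% over time, 8.62% and 9.32% with BML-260 at 1 day, and 18.3% and 17.3% with BML-260 at 3 days, and the counts below are to be read against these shares. Of 7 genes listed as mitochondrial ribosome proteins under other symbols, 5 fell with ISO and 5 over time, and 1, Chchd1, rose with BML-260 at 1 day (0.41, edgeR adjusted p = 2.5e-06). The list holds Dap3, Ptcd3, Chchd1, Aurkaip1, Gadd45gip1, Ict1 and Lactb. Of these, Lactb is not an established part of the ribosome, and the counts include it. Ptcd3, a pentatricopeptide repeat protein of the small subunit, fell with ISO (-0.59, adjusted p = 3.7e-10) and with BML-260 at 3 days (-0.16, adjusted p = 0.013). Aurkaip1 fell with ISO (-0.35, adjusted p = 4.8e-06).

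Of 11 translation factors 8 fell with ISO, 6 over time and 2 with BML-260 at 3 days, and 2 rose with BML-260 at 1 day. The falls at 3 days, 18.2% of the list, are at the background. The elongation factor Gfm1 was at 122 ± 7.69 CPM with DMSO at 1 day and 92.3 ± 4.61 with ISO (SD, n = 2), a log2 fold change of -0.40 (edgeR adjusted p = 7.7e-07). The elongation factors Tufm (-0.27, adjusted p = 2.7e-05) and Tsfm (-0.33, adjusted p = 0.00028) fell with ISO too. The initiation factor Mtif2 rose with BML-260 at 1 day (0.19, adjusted p = 0.018) and fell at 3 days (-0.30, adjusted p = 0.00038), and the effects differed (-0.49, adjusted p = 0.00055).

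Of 21 assembly and ribosomal RNA modifying factors 8 fell and 2 rose with ISO, 5 fell and 1 rose over time, 3 rose with BML-260 at 1 day, and 2 rose and 3 fell at 3 days. The shares at 3 days, 9.52% and 14.3%, are below the background. Among them Mpv17l2 (-0.33, edgeR adjusted p = 0.00011), Rpusd3 (-0.48, adjusted p = 4.5e-05) and Mettl15 (-0.43, adjusted p = 0.0014) fell with ISO, and Malsu1 rose with BML-260 at 1 day (0.26, adjusted p = 0.017) and 3 days (0.41, adjusted p = 0.00015). Of 10 genes of mitochondrial DNA maintenance and transcription 5 fell with ISO and 3 rose with BML-260 at 1 day. Tfam, which packages mitochondrial DNA, fell with ISO (-0.42, adjusted p = 4.4e-07), as did the elongation factor Tefm (-0.54, adjusted p = 7.7e-05), Lrpprc (-0.29, adjusted p = 0.00016) and Slirp (-0.29, adjusted p = 0.034), which bind mitochondrial messages together.

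Of 9 tested nuclear regulators of mitochondrial genes, 4 fell and 2 rose with ISO, the rises (22.2%) being near the background. With BML-260 at 3 days 3 rose and 2 fell, at 1 day 2 fell, and over time 2 fell. Esrra, the estrogen-related receptor alpha, was at 118 ± 6.14 CPM with DMSO at 1 day, 74.9 ± 1.96 with ISO and 71.2 ± 0.988 with DMSO at 3 days (SD, n = 2). It fell with ISO (-0.66, edgeR adjusted p = 9.2e-11) and over time (-0.73, adjusted p = 3e-11) and was not called with BML-260. The coactivator Ppargc1a fell with ISO (-0.50, adjusted p = 3.6e-07), while its relative Pprc1 rose (0.57, adjusted p = 6.3e-08). With BML-260 at 3 days Ppargc1a fell as well (-0.28, adjusted p = 0.00082) and Pprc1 rose (0.51, adjusted p = 3.6e-07).

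Ppargc1b fell with BML-260 at 1 day (-0.32, edgeR adjusted p = 0.0003) and 3 days (-0.51, adjusted p = 1.3e-07). Outside the rule for named genes, Nrf1 and Gabpa are given because their motifs were searched: Nrf1 was called in none of the 6 comparisons, and Gabpa fell with ISO (-0.14, adjusted p = 0.025) and over time (-0.15, adjusted p = 0.019). Of the 2 ribosomal RNAs the table lists mt-Rnr1, the 12S RNA, with 143 and 148 counts with DMSO at 1 day, 49 and 67 with BML-260 at 1 day, 50 and 68 with ISO, 45 and 72 with DMSO at 3 days and 17 and 34 with BML-260 at 3 days. Its counts fell with BML-260 at 1 day (-1.33, edgeR adjusted p = 1.7e-05), with ISO (-1.38, adjusted p = 2.4e-06), over time (-1.44, adjusted p = 1.8e-06) and with BML-260 at 3 days (-1.16, adjusted p = 0.0016). These counts are very low beside those of the mitochondrial message mt-Co3, with 17 against 60828 in replicate 1 of BML-260 at 3 days. They may therefore not follow the level of the 12S RNA in the cells, which was not tested.

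Other large complexes give a scale for these changes. Of 78 tested nuclear genes of the respiratory chain and ATP synthase 40 rose and 0 fell with BML-260 at 1 day (median 0.14), 45 rose and 2 fell at 3 days (0.14), 71 fell and 0 rose with ISO (-0.42), and 72 fell and 1 rose over time (-0.42). Of 80 tested genes of the cytosolic ribosome 19 rose at 1 day (median 0.08), 35 rose and 1 fell at 3 days (0.13), 6 rose and 13 fell with ISO (-0.03), and 37 fell over time (-0.13). With ISO the median of the mitochondrial ribosomal proteins, -0.25, lay between those of these sets. Genes of like length (5028 tested genes between the quartiles of the members) had medians of 0.03 with BML-260 at 1 day, -0.03 with ISO and -0.04 over time.

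Across the 76 genes the change with BML-260 at 1 day was ordered by GC content of the transcript with a Spearman rho of -0.42, against -0.18 over 13725 tested genes with a model, so AT-rich members had the larger rises; genes are not independent replicates, and the part of GC content in the result was not tested. Over time and with ISO the corresponding rho was -0.07 and 0.07. The 5 other genes whose log2 CPM followed the mean of the members most closely over the 10 libraries were Ndufb10 (Pearson r of 0.996) and Ndufc1 (0.992), both complex I subunits, the import chaperone factor Grpel1 (0.994), Tmem161b (0.992) and the cristae organizing protein Minos1 (0.991), of 9596 genes ranked.

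The authors' deposited table for BML-260 at 1 day covers 4.61% of the table's genes and lists 8 members, all higher, 6 Mrpl and 2 Mrps. Their table for 3 days, an authors' deposited list of 12.9% of the genes, holds 18 members, 16 higher and 2 lower (Mrpl51 and Mrps6), 11 Mrpl and 7 Mrps. All 8 and all 18 were called in the same direction by edgeR.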

How the data were processed

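The 10 libraries were grouped by their titles and treatment labels. Per the labels' protocols total RNA was extracted with TRIzol and made into Illumina libraries. Per the submitters' processing notes DESeq2, bedtools, TopHat2 2.1.1 and bcl2fastq 2.17.1.14 were used, with mm9 and mm10 named as builds. Not given in the sources used here are annotation, counting rule and strand setting. The authors deposited raw counts per gene symbol, and gene lists that, per the file headers, hold a p-value, its adjusted form and a log2 fold change; how these lists were thresholded was read from the files and their headers only.

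Counts were tested with edgeR 4.0.16 in R 4.3.3: TMM scaling, filterByExpr (minimum count 10, minimum total 15), a quasi-likelihood fit of all 10 libraries with a mean for each group (residual degrees of freedom 5, common dispersion 0.00115) and Benjamini-Hochberg adjustment over 15212 genes. Genes with adjusted p under 0.05 are called, and only those are said to have risen or fallen. The standard error (SE) is the absolute log2 fold change over the square root of F. TMM-scaled library sizes gave CPM, and log2 CPM took a prior count of 2. Depth, given as total counts in the report, limits precision through counting error. The coefficient of variation between libraries of a group beyond counting error, from the common dispersion, was 3.39%. The fit was tested on simulated data.

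The members and lists were chosen with earlier results of these data known, so no test was made over a list. Named were up to 5 called members of largest change per direction and comparison, the 3 highest and 3 lowest per kb in each subunit, 14 members of known roles, up to 4 partners per list by p in the 5-group test, and the 5 genes most like the members' mean. GENCODE M21 (GRCm38) gave lengths, GC content and overlaps, matched by symbol. The YY1 motif was shortened to AAGATGGCG after a first search with a longer form, which matched fewer promoters, had been seen. ISO was also set against DMSO at 3 days and BML-260 at 3 days against ISO, both added after the data were seen. Alternatives were other scalings, no filter, DESeq2 1.42.0, fits of the compared groups alone, a replicate block and leaving out each library.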

Additional observations from a re-analysis of the deposited data

Results flagged for a closer look

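For 6 genes the effect of BML-260 at 3 days differed from its effect at 1 day by a direct test of the difference (edgeR's interaction contrast, adjusted p under 0.05 over all genes tested). The difference of the log2 effects was -0.367 for Mrpl51 (adjusted p = 0.0024) and -0.35 for Mrps6 (adjusted p = 0.0038). It was -0.329 for Mrps35 (adjusted p = 0.011), -0.235 for Mrpl18 (adjusted p = 0.042), 0.289 for Mrps26 (adjusted p = 0.048) and -0.261 for Mrpl11 (adjusted p = 0.049). A share of 8.44% of all genes tested passed the same test, against 7.89% of the members. Groups of 2 libraries are too small to test for a single library that stands apart.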

How the results depend on the processing

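With 2 libraries per group, single libraries and the tool moved the counts where changes were small. No alternative fit of the same comparison reversed a called direction among the named genes. A change of the groups compared did: Mrpl12, lower with ISO than with DMSO at 1 day, was higher than with DMSO at 3 days (0.28, edgeR adjusted p = 0.0028). Mrpl51 (-0.23, edgeR adjusted p = 0.0033) and Mrps7 (-0.21, adjusted p = 0.0071) were lower with BML-260 at 3 days than with ISO, whereas no member was called lower with BML-260 at 1 day. For BML-260 at 1 day 32 members were called, 20 with DESeq2, and 11 to 35 when 1 library was left out, the lone library being assumed to vary like the other groups. For the difference between times 6 became 3 with no filter on low counts, 2 with DESeq2 and 2 to 5 when 1 library was left out. Leaving out 1 library gave 22 to 32 members for BML-260 at 3 days, 45 to 58 for ISO, 59 to 67 for BML-260 against ISO, 52 to 62 over time and 71 to 74 for the 5 groups. Set against DMSO at 3 days, ISO differed in 11 members in place of 57, and BML-260 at 3 days differed from ISO in 12 in place of 65 at 1 day; both were chosen after seeing the data. Of 113 alternative counts 99 were within 1.5 times the main one. Calls over the whole table varied as well: for BML-260 at 1 day edgeR called 2728 genes and DESeq2 1838. Depth limits mainly Mrpl23, with SE up to 0.25 on the log2 scale.

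The log2 ratio of Mrpl to Mrps sums against DMSO at 1 day moved with the structural assignment to 0.0371 for BML-260 at 1 day, -0.0118 for ISO, -0.0155 for DMSO at 3 days and 0.00924 for BML-260 at 3 days. These shifts come from the reassigned genes alone, so the differences in ratio by symbol rest in part on those few genes. Without the members of overlapping exons, which left 30 Mrpl and 20 Mrps genes, ISO was at -0.0302. Leaving out 1 library gave 0.0125 to 0.0361, -0.0586 to -0.035, -0.0514 to -0.0278 and -0.0321 to -0.00851 in the order BML-260 at 1 day, ISO, DMSO at 3 days and BML-260 at 3 days.

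No shared effect of the replicate number was seen: differences between replicates 1 and 2 correlated between groups with r of -0.034 to 0.058. Whether samples were paired cannot be told from this. With a replicate block edgeR called 35 members for BML-260 at 1 day, 34 for BML-260 at 3 days (27 higher and 7 lower), 6 for the difference between times, 58 for ISO, 65 for BML-260 against ISO, 62 over time and 74 for the 5 groups, and the block ended no call of a named gene. Over the whole table it called 2898, 5555, 1474, 6498, 6869, 5455 and 10220 genes in the same order.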

Other observations

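Messages that the mitochondrial ribosome translates are listed in part: the table holds mt-Co3, mt-Nd3 and mt-Nd5. mt-Co3, a subunit of cytochrome oxidase, had 137637 and 145053 counts with DMSO at 1 day, 105242 and 133086 with BML-260 at 1 day, and 97613 and 114823 with ISO. With DMSO at 3 days it had 119664 and 121028, and with BML-260 at 3 days 60828 and 74364. These counts are not scaled for library size, and no test result for mt-Co3 is given here.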
